A study of Danio rerio with 12 samples.

Results

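The ion and metal carriers described here are 53 genes of the zebrafish solute carrier superfamily, out of 14134 genes in the deposited table. They were taken by symbol, as every gene whose name starts with slc4a, slc8a, slc12a, slc20a, slc24a, slc26a, slc30a, slc34a, slc39a, slc40a or slc41a. Of these 11 prefixes, 10 had at least 1 gene, and slc41a had 0. With a minimum mean of 1 CPM (a gene's reads relative to the size of the library, in the usual CPM unit, here scaled by TMM) over all 12 libraries, 41 carriers were tested and 12 were not.

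Each library came from a pool of 5 whole embryos that carried GFP and had been freed of the chorion. Which transgene gives the GFP is not stated in the labels. The 3 groups of 4 pools each were embryos in 50 µM empagliflozin, embryos in 50 µM canagliflozin, and control embryos in the solvent DMSO. Exposure lasted 4 hours in each group, starting at 23 hours post fertilization, and the embryos were harvested at 27 hours. Both compounds inhibit the kidney sodium-glucose cotransporter SGLT2, and both are C-glucosides: the central ring carries a chlorine in empagliflozin and a methyl group in canagliflozin, and the outer part is an oxolane ether in empagliflozin and a fluorophenyl thiophene in canagliflozin.

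As background, these carriers are membrane proteins without an ATPase of their own: most run on the gradients of sodium, chloride, protons or bicarbonate that the sodium pump and the proton pump keep up. The slc4 and slc26 families exchange anions such as chloride, bicarbonate and sulfate, slc12 carriers move chloride together with sodium or potassium, slc8 and slc24 carriers trade sodium for calcium, and slc20 and slc34 carriers bring in phosphate with sodium. Zinc leaves the cytosol through slc30 carriers and enters it through slc39 carriers, and slc40a1 lets iron out of the cell. In a fish embryo many of them serve the ionocytes of the skin, the pronephros (the embryonic kidney), red blood cells, the yolk cell, neurons and pigment cells.

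The libraries held 16149682 to 27842375 reads, so that 1 read was 0.0363 to 0.0621 CPM. On the principal axis that held 41.8% of the variance over all tested genes, empagliflozin pools scored 15.6 to 18.6. Canagliflozin 4 scored 5.95 and control 4 scored 7.52, while the other pools of both groups lay between -17.9 and -8.92. Results are therefore also given without these 2 libraries, which the labels do not set apart. Of 118 marker genes of 9 cell types, 100 were in the table, and 0 of these had no reads in a whole group.

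All carriers together took 1604 ± 20.4 CPM in empagliflozin, 1672 ± 45.1 CPM in canagliflozin and 1647 ± 68.2 CPM in control (SD, n = 4 each). The 3 ranges overlapped, at 1576 to 1624 CPM in empagliflozin, 1622 to 1721 CPM in canagliflozin and 1554 to 1717 CPM in control. Tested carriers had means of 1.12 to 242 CPM over all libraries. CPM is not corrected for transcript length, so levels are compared between groups only, not between genes.

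The carrier with the highest mean CPM in each family is described first. Band 3, the anion exchanger of red blood cells encoded by slc4a1a, was at 223 ± 24.7 CPM in empagliflozin, 241 ± 21.6 CPM in canagliflozin and 254 ± 34.4 CPM in control. The sodium-phosphate carrier gene slc20a1b was at 223 ± 14.6 CPM in empagliflozin, 257 ± 26.5 CPM in canagliflozin and 245 ± 40.7 CPM in control. Neither gene passed the test in any comparison. The iron exporter ferroportin, slc40a1, was at 142 ± 16.1 CPM in empagliflozin, 148 ± 6.45 CPM in canagliflozin and 146 ± 7.34 CPM in control. Its pools spanned 126 to 164 CPM in empagliflozin, 139 to 155 CPM in canagliflozin and 136 to 153 CPM in control, so all 3 groups overlapped.

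Among zinc carriers, slc39a7, which releases zinc from the endoplasmic reticulum, was at 145 ± 7.83 CPM in empagliflozin, 131 ± 8.13 CPM in canagliflozin and 134 ± 6.33 CPM in control. The Golgi zinc carrier gene slc30a7 was at 55.1 ± 5.75 CPM in empagliflozin, 59.3 ± 9.58 CPM in canagliflozin and 54.0 ± 3.34 CPM in control. For both genes the pools of all 3 groups overlapped, and neither passed the test. Prestin, slc26a5, known in mammals as the motor protein of outer hair cells, was at 78.5 ± 3.37 CPM in empagliflozin, 77.2 ± 5.69 CPM in canagliflozin and 76.2 ± 3.86 CPM in control. The sodium-potassium-chloride cotransporter gene slc12a2 was at 65.0 ± 2.02 CPM in empagliflozin, 65.3 ± 7.63 CPM in canagliflozin and 63.5 ± 8.51 CPM in control. For these 2 genes the 3 means differed by less than the spread between pools.

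The phosphate carrier gene slc34a2b was at 15.2 ± 1.77 CPM in empagliflozin, 18.3 ± 0.847 CPM in canagliflozin and 17.4 ± 2.03 CPM in control. The sodium-calcium exchanger gene slc8a1a, which the zebrafish heart needs for a regular beat, was at 7.54 ± 0.618 CPM in empagliflozin, 9.69 ± 1.84 CPM in canagliflozin and 9.38 ± 0.627 CPM in control. Neither passed the test. Of the 10 family leaders, the test was passed by slc24a5 alone, in empagliflozin against canagliflozin.

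**Figure D1:**
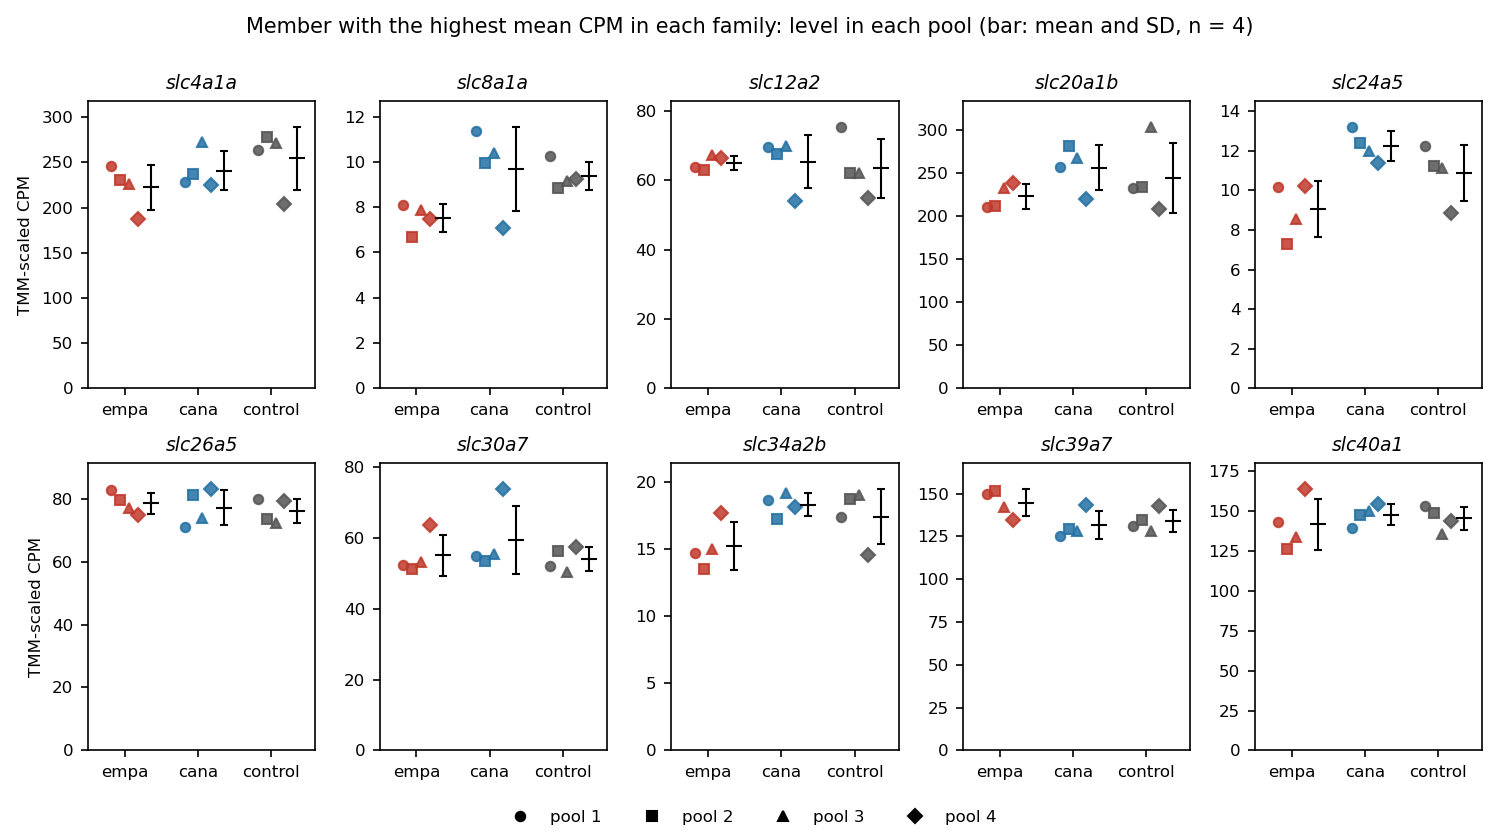
TMM-scaled CPM (vertical axis, from 0) of the carrier with the highest mean CPM in each of 10 families, with 1 point per pool of 5 embryos in empagliflozin, canagliflozin and control and bars for the mean and SD (n = 4). The groups overlap in most panels; slc24a5 lies lower in all empagliflozin pools than in all canagliflozin pools, and canagliflozin 4 (slc30a7 73.6 CPM) and control 4 (slc4a1a 204 CPM) stand off from their groups.

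In empagliflozin against control, the question was which carriers move within 4 hours in the compound. Of 41 tested carriers, 1 rose and 3 fell: the zinc importer gene slc39a10 was higher, and the anion exchanger gene slc26a1, the sodium-chloride cotransporter gene slc12a3 and the zinc importer gene slc39a9 were lower. All 4 changes were small, between -0.44 and 0.32 on the log2(CPM + 1) scale. This share of 9.76% is set against 13.3% of all 11964 tested genes that limma called at an adjusted p under 0.05 (6.87% higher and 6.41% lower), and the share of the carriers is not above it. In these whole-embryo pools, fewer cells of a type and less RNA per cell cannot be told apart.

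Over all 41 carriers the log2 fold changes in empagliflozin against control ran from -0.44 to 0.42, with a median of 0.03 (-0.0011 for all tested genes), and 23 were positive and 18 negative. The median size of the change, sign aside, was 0.153 log2 for carriers and 0.152 log2 for all tested genes. The groups did not overlap for 8 carriers (19.5%; 2 higher and 6 lower in empagliflozin), against 19.1% of all tested genes (9.55% higher and 9.51% lower). The 4 of these that were not called were slc12a9, slc8a1a, the zinc exporter gene slc30a4 and the anion carrier gene slc26a11. In the authors' deposited table, 7 of the 40 carriers it lists had a false discovery rate under 0.05, against 15.9% of its genes. They were the 4 carriers named above together with slc4a3, slc12a9 and slc8a1a.

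In canagliflozin against control, 0 of 41 carriers passed the limma test, as did 0% of all tested genes, where the smallest adjusted p was 0.385. At an unadjusted p under 0.05 there was 1 carrier, slc30a10, against 7.73% of all tested genes. On recovered reads, edgeR called 0 carriers and 0% of all tested genes. DESeq2 called 0 carriers, against 0.201% of all tested genes (0.0919% higher and 0.109% lower). The authors' deposited table had 0 of 40 carriers at a false discovery rate under 0.05, against 0.0251% of its genes. No carrier had groups that did not overlap, against 4.49% of all tested genes (2.66% higher and 1.83% lower). The log2 fold changes ran from -0.29 to 0.32, and the 95% intervals reached 0.139 to 0.550 log2 to either side, with a median of 0.246. A carrier that missed the threshold is not shown to be unaffected.

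The manganese exporter gene slc30a10, named for its role in mammals, had the smallest p, at 2.89 ± 0.276 CPM in canagliflozin against 2.15 ± 0.592 CPM in control (log2 0.32, 95% interval 0.03 to 0.62, limma adjusted p = 0.616). The sodium-bicarbonate cotransporter gene slc4a4a of the proximal pronephros was at 62.4 ± 4.44 CPM in canagliflozin against 55.9 ± 3.82 CPM in control (log2 0.16, limma adjusted p = 0.645). The phosphate carrier gene slc20a1a, also known from the proximal pronephros, was at 10.6 ± 1.24 CPM in canagliflozin against 9.17 ± 0.882 CPM in control (log2 0.18, limma adjusted p = 0.680). None of these 3 separated the groups. The neuronal potassium-chloride cotransporter gene slc12a5b was at 2.54 ± 0.934 CPM in canagliflozin against 3.23 ± 0.731 CPM in control (log2 -0.29, limma adjusted p = 0.737).

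In empagliflozin against canagliflozin, the 1 pair of compounds at a matched dose and time, 10 of 41 carriers differed. The pools in empagliflozin had more RNA of slc39a10, slc30a1a, slc4a3 and slc8a2b, and less of slc26a1, slc12a3, slc12a9, slc39a9, slc39a13 and slc24a5. The 10 differences were 1.20-fold to 1.54-fold in size on the CPM + 1 scale. Their share of 24.4% stands beside 25.5% of all tested genes (12.4% higher and 13.1% lower), which is close to it. The 95% intervals of the 41 differences reached 0.139 (slc39a7) to 0.550 log2 (slc12a10.2) to either side, with a median of 0.246, and a carrier that was not called is not shown to be alike under both compounds. Log2 differences over all carriers ran from -0.56 to 0.62 with a median of -0.07, against 0.01 for all tested genes.

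The groups did not overlap for 9 carriers in this comparison (22.0%; 4 higher and 5 lower in empagliflozin), against 25.6% of all tested genes (11.9% higher and 13.7% lower). In the authors' deposited table, 7 of 41 carriers had a false discovery rate under 0.05, against 15.6% of its genes, and 6 of the 7 were called here. The carrier of these that was not called here was slc12a5b, with a false discovery rate of 0.0477. The 4 other carriers called here had a false discovery rate above 0.05 in the authors' deposited table, at 0.0558 for slc30a1a, 0.0601 for slc39a10, 0.0731 for slc39a9 and 0.103 for slc39a13. The remaining 31 carriers were called in no comparison. Both empagliflozin comparisons called slc26a1, slc12a3, slc39a9 and slc39a10; because the comparisons share the same empagliflozin pools, the second call is no separate evidence.

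**Figure D2:**
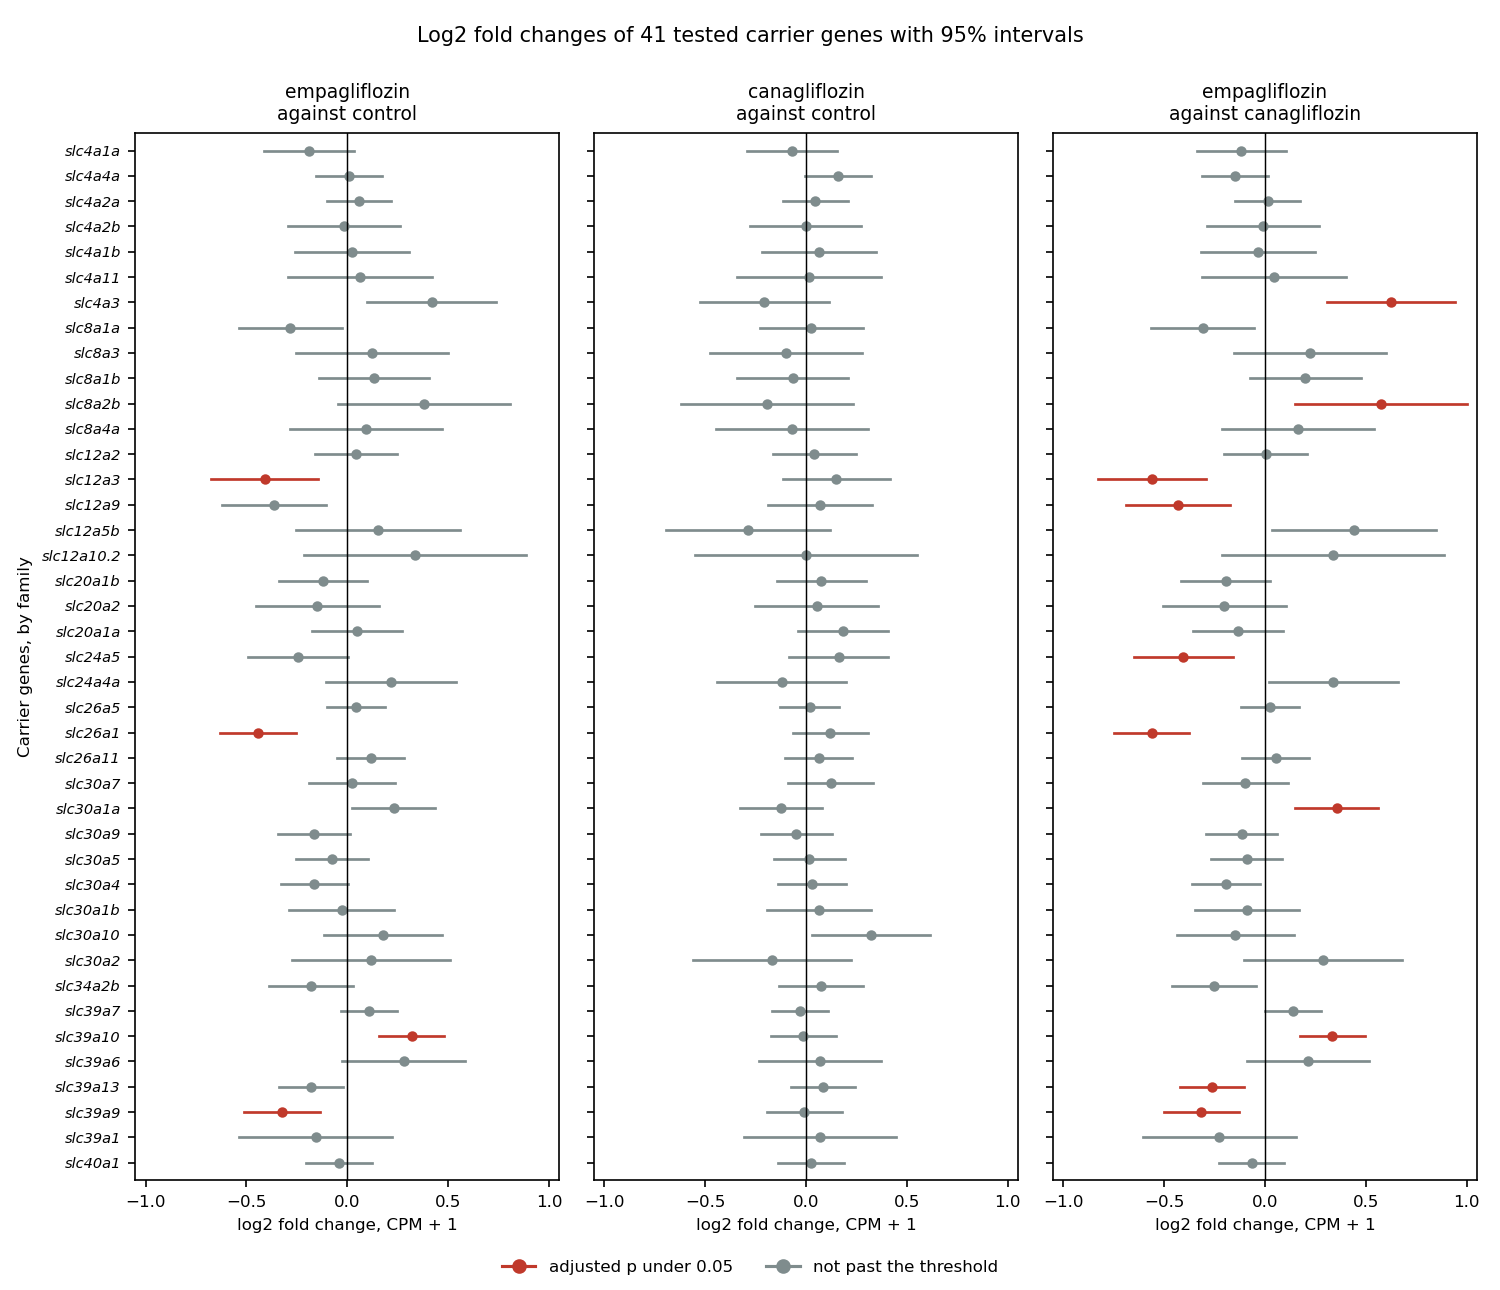
Log2 fold change on the CPM + 1 scale (horizontal axis, point) with its 95% interval (line) for each of the 41 tested carriers, in 3 panels: empagliflozin against control (left), canagliflozin against control (middle), empagliflozin against canagliflozin (right). Red marks an adjusted p under 0.05 in limma: 4 carriers on the left, 0 in the middle and 10 on the right, the lowest being slc26a1 at -0.56 and the highest slc4a3 at 0.62.

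**Figure D3:**
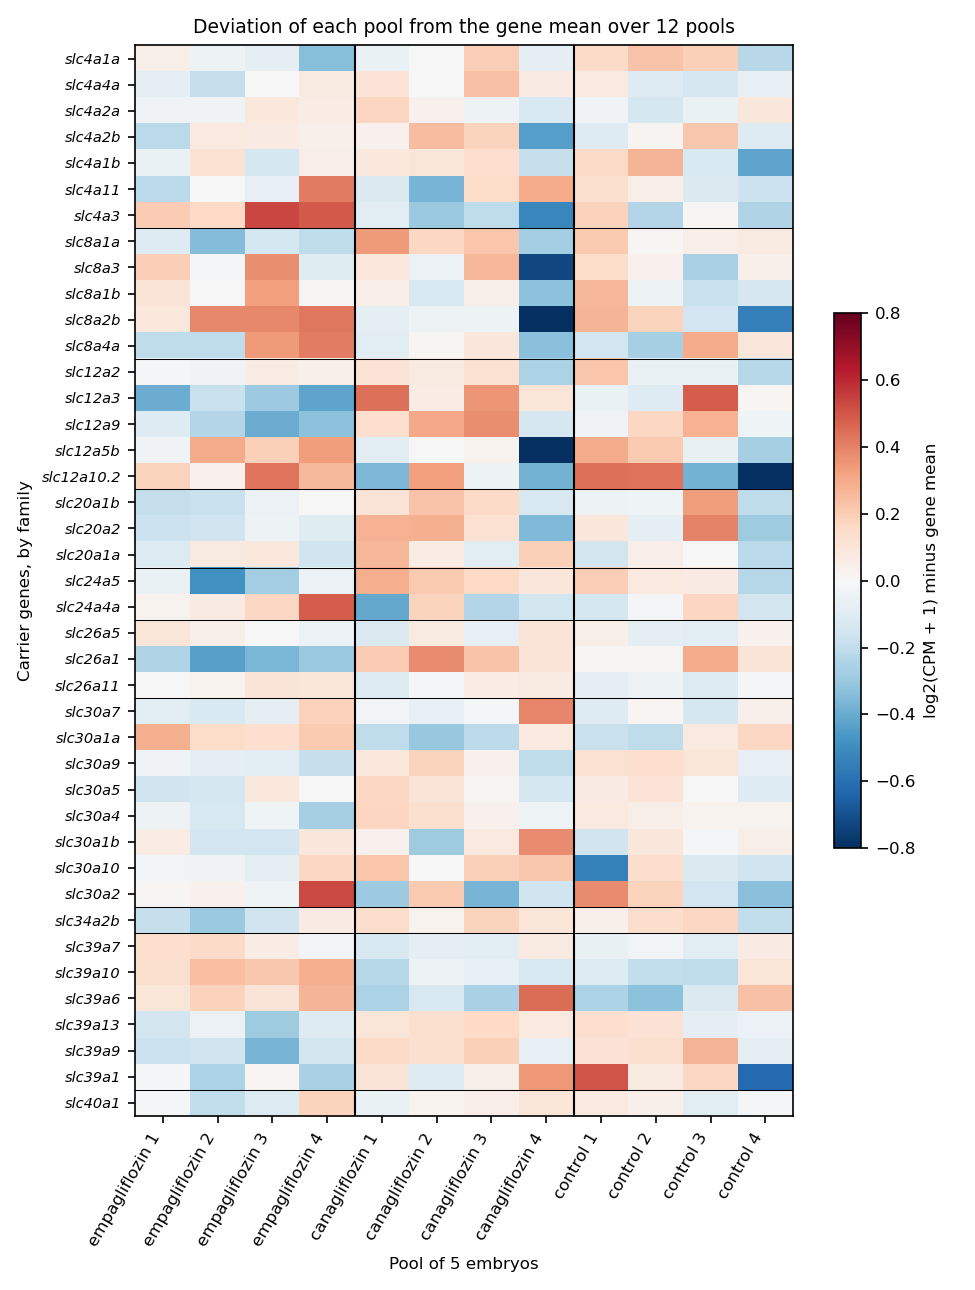
Deviation of each pool from the gene's mean over 12 pools in log2(CPM + 1), as colour (scale ends at -0.8 and 0.8, beyond which colours no longer change), for the 41 tested carriers in rows by family and the empagliflozin, canagliflozin and control pools in columns. Rows such as slc26a1 and slc39a10 hold 1 colour over all empagliflozin pools, while canagliflozin 4 is low in slc8a2b and slc12a5b, and control 4 in slc12a10.2.

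Among anion exchangers, slc26a1 changed most clearly. It encodes a sulfate and oxalate exchanger known from mammalian liver and kidney. The pools had 16.4, 14.2, 15.0 and 15.8 CPM of slc26a1 in empagliflozin, 22.7, 25.7, 23.1 and 21.1 CPM in canagliflozin, and 19.8, 19.7, 24.3 and 21.1 CPM in control. Every empagliflozin pool lay below every canagliflozin and every control pool. Its level fell by 0.44 on the log2 scale in empagliflozin against control (95% interval -0.63 to -0.25, limma adjusted p = 0.00961). Against canagliflozin the difference was -0.56 (95% interval -0.75 to -0.38, limma adjusted p = 0.00071). Canagliflozin and control did not separate, with a log2 difference of 0.12 (95% interval -0.07 to 0.31). Both calls held in all 23 alternatives. Control 4 and canagliflozin 4 lay at -0.01 and -0.16 log2 from the other 3 pools of their groups. The alternatives counted for each carrier include fits without control 4, canagliflozin 4 or both. More calls in those fits follow from the choice of pools and are no support.

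The bicarbonate exchanger gene slc4a3, which in mammals is expressed in brain, heart and retina, had 1.38, 1.31, 1.99 and 1.91 CPM in empagliflozin, 0.942, 0.683, 0.795 and 0.442 CPM in canagliflozin, and 1.34, 0.754, 1.08 and 0.751 CPM in control. All empagliflozin pools were above all canagliflozin pools, and control 1 reached into the empagliflozin range. The difference between the compounds was 0.62 log2 (95% interval 0.31 to 0.94, limma adjusted p = 0.00801). With so few reads the added 1 CPM shrinks this value, and edgeR on recovered reads gave 1.19. Against control it was 0.42 (limma adjusted p = 0.0725), which missed the threshold, and canagliflozin against control gave -0.21 (limma adjusted p = 0.774). The 5 other tested slc4 carriers beside slc4a1a, namely slc4a1b, slc4a2a, slc4a2b, slc4a4a and slc4a11, were called in no comparison.

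Among cation-chloride cotransporters, slc12a3 and slc12a9 were lower in empagliflozin than in canagliflozin. The thiazide-sensitive sodium-chloride cotransporter of the distal pronephros, slc12a3, had 15.8, 18.5, 17.1 and 15.5 CPM in empagliflozin, 29.0, 22.0, 27.3 and 22.6 CPM in canagliflozin, and 20.3, 19.6, 30.0 and 21.4 CPM in control. The empagliflozin pools were the 4 lowest of the 12, with canagliflozin 1, canagliflozin 3 and control 3 far above the rest. The log2 difference was -0.56 from canagliflozin (95% interval -0.83 to -0.29, limma adjusted p = 0.0055) and -0.41 from control (95% interval -0.68 to -0.14, limma adjusted p = 0.0431). The call against canagliflozin held in all 23 alternatives and that against control in 14 of 23. It was lost with no minimum level and without empagliflozin 1, 2, 3 or 4, canagliflozin 3, or control 1, 2 or 3, with an adjusted p of at most 0.127.

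The pronephros markers had 13 of 15 genes in the table and 0 at zero. Together they summed to 827 to 862 CPM in empagliflozin, 702 to 875 CPM in canagliflozin and 703 to 798 CPM in control. Most of this came from cdh2, with means of 493 CPM in empagliflozin, 433 CPM in canagliflozin and 403 CPM in control. The sum therefore mostly reflects this 1 gene and is not read as an amount of pronephros. In empagliflozin against control 6.87% of all tested genes were higher and 6.41% lower. Of 12 tested markers, 9 had a positive log2 fold change there, 3 rose and 1 fell. Those that rose were the transcription factor genes pax2a (log2 0.34, limma adjusted p = 0.0246) and gata3 (log2 0.47, limma adjusted p = 0.0407) and the cadherin gene cdh2 (log2 0.29, limma adjusted p = 0.0303). The marker that fell was cdh17, an adhesion molecule of the pronephric tubule and duct, at 97.5 ± 6.12 CPM in empagliflozin against 121 ± 8.83 CPM in control (log2 -0.30, limma adjusted p = 0.0186). Against canagliflozin 7 of the 12 were positive, with 3 higher and 1 lower, beside 12.4% and 13.1% of all tested genes. The higher ones were pax2a (log2 0.26, limma adjusted p = 0.0395), lhx1a (log2 0.43, limma adjusted p = 0.00638) and gata3 (log2 0.48, limma adjusted p = 0.0239). The lower one was cdh17 (log2 -0.36, limma adjusted p = 0.00255). The cells in which these markers changed and the part of the pronephros in the slc12a3 values were not tested.

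The orphan member slc12a9 had 7.26, 6.55, 5.72 and 6.07 CPM in empagliflozin, 8.71, 9.94, 10.5 and 7.08 CPM in canagliflozin, and 7.71, 8.97, 9.76 and 7.67 CPM in control. All empagliflozin pools were below all controls, while canagliflozin 4 fell among the empagliflozin pools. The difference from canagliflozin was -0.43 log2 (95% interval -0.69 to -0.18, limma adjusted p = 0.0173), and that from control -0.36 (limma adjusted p = 0.0583). The call against canagliflozin was lost without empagliflozin 3, canagliflozin 2 or canagliflozin 3, with an adjusted p of at most 0.0602. The fish gene slc12a10.2, a relative of slc12a3 that skin ionocytes use, was at 2.49 ± 0.400 CPM in empagliflozin, 1.81 ± 0.677 CPM in canagliflozin and 1.97 ± 1.26 CPM in control, and passed no test. Its value is uncertain, since reads could be shared with its tandem copy slc12a10.3.

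Of the ionocyte markers, 13 of 15 were in the table and 0 at zero. Together they summed to 689 to 790 CPM in empagliflozin, 653 to 705 CPM in canagliflozin and 642 to 827 CPM in control. Most of this came from ca2, atp1a1a.2, atp6v1aa and dlc, with means of 289, 152, 109 and 103 CPM in empagliflozin. There foxi3a, foxi3b, gcm2 and trpv6 were at 7.79, 18.1, 7.19 and 5.61 CPM. None of 12 tested markers was called in empagliflozin against control, beside 6.87% higher and 6.41% lower of all tested genes. Against canagliflozin 2 were higher, ca2 (log2 0.39, limma adjusted p = 0.00262) and igfbp5a (log2 0.37, limma adjusted p = 0.0256). The 1 that was lower was the sodium pump gene atp1a1a.5 (log2 -0.67, limma adjusted p = 0.00612). Of all tested genes 12.4% were higher and 13.1% lower in that comparison. The part of ionocytes in the slc12 values was not tested. The neuronal slc12a5b was not called by limma: its difference was 0.44 log2 between empagliflozin and canagliflozin (limma adjusted p = 0.1002). The authors' deposited table gave it a false discovery rate of 0.0477 in that comparison.

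Zinc carriers changed in both directions. The importer gene slc39a10 had 86.1, 93.4, 91.6 and 96.2 CPM in empagliflozin, 67.1, 76.5, 75.1 and 72.1 CPM in canagliflozin, and 73.0, 68.6, 68.3 and 84.4 CPM in control. The 4 empagliflozin pools were the highest, and control 4 came next. The log2 difference was 0.32 from control (95% interval 0.16 to 0.48, limma adjusted p = 0.0187) and 0.33 from canagliflozin (95% interval 0.17 to 0.49, limma adjusted p = 0.00589). The call against canagliflozin held in all 23 alternatives and that against control in 20, being lost without empagliflozin 2, control 2 or control 3 with an adjusted p of at most 0.0674. Control 4 lay 0.27 log2 above the other 3 controls, and canagliflozin 4 at -0.01 from its group.

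The close relative slc39a6 was at 57.6 ± 3.28 CPM in empagliflozin, 50.7 ± 13.2 CPM in canagliflozin and 47.8 ± 8.95 CPM in control. Its pools overlapped, because canagliflozin 4 had 70.2 CPM and control 4 had 60.6 CPM. The change of slc39a6 in empagliflozin against control was 0.28 log2 (limma adjusted p = 0.187). Against canagliflozin it was 0.21 log2 (limma adjusted p = 0.287), and neither passed the test.

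The importer genes slc39a9 and slc39a13, whose mammalian products sit in the Golgi and other secretory membranes, went the other way. The pools had 26.6, 26.8, 23.0 and 27.1 CPM of slc39a9 in empagliflozin, 33.6, 33.0, 34.6 and 28.7 CPM in canagliflozin, and 32.7, 33.0, 36.6 and 28.6 CPM in control. The empagliflozin pools were the lowest, and canagliflozin 4 and control 4 were the lowest of their groups. The log2 difference was -0.32 from control (95% interval -0.51 to -0.14, limma adjusted p = 0.0301) and -0.32 from canagliflozin (95% interval -0.50 to -0.13, limma adjusted p = 0.0171). The call against control was lost without empagliflozin 1, 2 or 3 or control 1, 2 or 3, with an adjusted p of at most 0.102. That against canagliflozin was lost without empagliflozin 3, canagliflozin 1 or canagliflozin 3, with an adjusted p of at most 0.0601.

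For slc39a13 the pools had 32.0, 34.4, 29.1 and 33.1 CPM in empagliflozin, 38.1, 39.0, 40.0 and 37.6 CPM in canagliflozin, and 39.3, 38.8, 33.7 and 34.4 CPM in control. The canagliflozin pools were all above the empagliflozin pools, and control 3 and control 4 lay in the empagliflozin range. The difference from canagliflozin was -0.26 log2 (95% interval -0.42 to -0.10, limma adjusted p = 0.019), and that from control -0.18 (limma adjusted p = 0.113). The call was lost without empagliflozin 3 or canagliflozin 3, with an adjusted p of at most 0.0658.

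Of the 8 slc30 genes, 7 named for zinc export and slc30a10 known as a manganese exporter, slc30a1a was called, in empagliflozin against canagliflozin. Its product is the exporter of the plasma membrane, and in mammals the gene is induced by zinc through the factor encoded by mtf1. The pools had 54.9, 49.9, 49.4 and 52.1 CPM of slc30a1a in empagliflozin, 38.8, 36.1, 38.7 and 47.5 CPM in canagliflozin, and 39.6, 39.0, 47.4 and 50.4 CPM in control. All empagliflozin pools were above all canagliflozin pools, and control 4 lay in the empagliflozin range. The difference from canagliflozin was 0.35 log2 (95% interval 0.15 to 0.56, limma adjusted p = 0.0153), and that from control 0.23 (limma adjusted p = 0.115). Without canagliflozin 2 the adjusted p was 0.0532. Control 4 and canagliflozin 4 stood 0.26 and 0.32 log2 above the other 3 pools of their groups.

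Among sodium-calcium exchangers, slc8a2b and slc24a5 differed between the compounds. The gene slc8a2b, whose mammalian counterpart is a brain exchanger, had 2.80, 3.69, 3.67 and 3.81 CPM in empagliflozin, 2.40, 2.48, 2.48 and 0.973 CPM in canagliflozin, and 3.33, 3.06, 2.22 and 1.46 CPM in control. Canagliflozin 4 and control 4 were the lowest of their groups, and controls 1 and 2 lay in the empagliflozin range. The difference from canagliflozin was 0.57 log2 (limma adjusted p = 0.0471), and that from control 0.38 (limma adjusted p = 0.202). This call held in 10 of 22 alternatives, and without canagliflozin 4 the difference was 0.37. It was also lost with a pseudocount of 0.1, with no minimum level, with edgeR and without empagliflozin 2, 3 or 4, canagliflozin 1, 2 or 3, or control 2 or 3, with an adjusted p of at most 0.102.

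Markers of differentiating neurons, 12 of 14 in the table and 0 at zero, summed to 1547 to 1669 CPM in empagliflozin, 1114 to 1392 CPM in canagliflozin and 1103 to 1423 CPM in control, with canagliflozin 4 and control 4 the highest of their groups. Of 12 tested, 5 rose and 0 fell in empagliflozin against control, where 6.87% of all tested genes were higher and 6.41% lower. Against canagliflozin 8 were higher and 0 lower, beside 12.4% and 13.1% of all tested genes. The part of neuronal RNA in the values of slc8a2b, slc4a3 and slc12a5b was not tested.

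The exchanger gene slc24a5, known as golden for the pale larvae that lack it, works in the pigment granules of melanophores. It had 10.2, 7.27, 8.56 and 10.2 CPM in empagliflozin, 13.2, 12.4, 11.98 and 11.4 CPM in canagliflozin, and 12.3, 11.2, 11.2 and 8.88 CPM in control. All empagliflozin pools were below all canagliflozin pools, and control 4 lay in the empagliflozin range. The difference from canagliflozin was -0.41 log2 (95% interval -0.65 to -0.16, limma adjusted p = 0.0188), and that from control -0.24 (limma adjusted p = 0.158). The call was lost without empagliflozin 2, empagliflozin 3 or canagliflozin 1, with an adjusted p of at most 0.0661.

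Pigment cell markers, 10 of 12 in the table and 0 at zero, summed to 852 to 944 CPM in empagliflozin, 845 to 960 CPM in canagliflozin and 809 to 859 CPM in control. Against canagliflozin 1 of 10 markers was called, beside 25.5% of all tested genes. It was the melanosome gene pmela, at 235 ± 15.8 CPM in empagliflozin and 278 ± 22.0 CPM in canagliflozin (log2 -0.24, limma adjusted p = 0.0409). This list was added after the data were seen, and its part in the slc24a5 values was not tested. The heart exchanger gene slc8a1a was not called: its log2 difference was -0.28 from control (95% interval -0.54 to -0.03, limma adjusted p = 0.118) and -0.31 from canagliflozin (limma adjusted p = 0.0692).

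**Figure D4:**
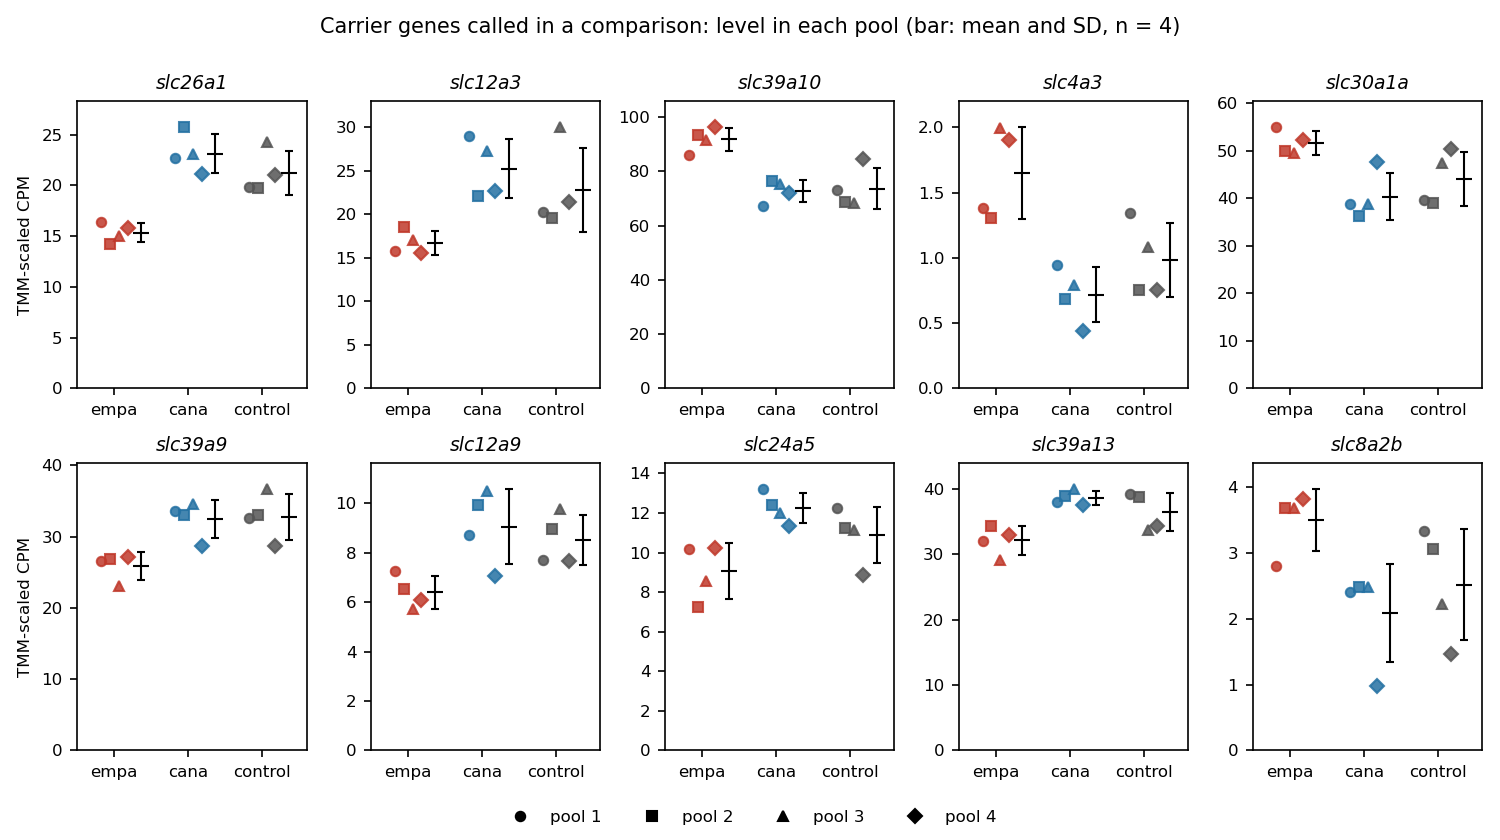
TMM-scaled CPM (vertical axis, from 0) of the 10 carriers called in at least 1 comparison, with 1 point per pool of 5 embryos, its shape giving the pool number, and bars for the mean and SD (n = 4) in empagliflozin, canagliflozin and control. Empagliflozin pools lie apart from all other pools in slc26a1, slc12a3, slc39a10 and slc39a9, while in slc8a2b canagliflozin 4 at 0.973 CPM widens the gap.

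The phosphate and iron carriers were called in no comparison. The difference between empagliflozin and canagliflozin was -0.25 log2 for slc34a2b (limma adjusted p = 0.0685), and the 3 tested slc20 carriers had log2 differences of -0.20 to -0.13 there. The red cell gene slc4a1a was not called in empagliflozin against control (limma adjusted p = 0.222). Of the erythroid markers, 11 of 15 were in the table and 0 at zero. They summed to 3455 to 4551 CPM in empagliflozin, 4163 to 5019 CPM in canagliflozin and 4166 to 5113 CPM in control. None of 11 was called in empagliflozin against control, beside 6.87% higher and 6.41% lower of all tested genes. Against canagliflozin 1 was higher, epb41b (log2 0.65, limma adjusted p = 0.00303), and 0 were lower. Of all tested genes 12.4% were higher and 13.1% lower there.

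Control 4 and canagliflozin 4 were picked because they lie nearest the empagliflozin pools on the principal axis, so that more calls without them follow from the choice and are no support for any carrier. In empagliflozin against control, 15 of 41 carriers were called without both, 3 higher and 12 lower, against 35.5% of all tested genes (18.9% higher and 16.6% lower), and the 4 named above were among them. Added ones with higher levels in empagliflozin were slc30a1a (0.30 log2) and slc39a6 (0.40 log2). Added ones with lower levels included slc4a1a (-0.29 log2), slc24a5 (-0.33 log2), slc12a9 (-0.41 log2) and slc34a2b (-0.26 log2). In empagliflozin against canagliflozin, 18 carriers were called, 6 higher and 12 lower, against 40.8% of all tested genes (21.1% higher and 19.8% lower), and all 10 named above were among them. Why these 2 pools stand apart was not tested.

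Pumps, enzymes and regulators chosen as partners of the carriers were read from 5 lists, in the same fits. Not every listed gene is such a partner, as given below for mtf2 and pitx1. The lists were set against the 6.87% of all tested genes that were higher and 6.41% lower in empagliflozin than in control, and the 12.4% higher and 13.1% lower than in canagliflozin. Of 17 tested calcium pumps and regulators, 5 rose and 0 fell in empagliflozin against control, with a median of 0.10 log2. They were the hormone gene stc2a (8.39 ± 0.489 CPM in empagliflozin against 5.70 ± 1.03 CPM in control, log2 0.50, limma adjusted p = 0.0147), the mitochondrial genes letm1 (0.32, adjusted p = 0.0202) and micu2 (0.28, adjusted p = 0.0266), and the plasma membrane calcium pump genes atp2b2 (0.50, adjusted p = 0.0232) and atp2b3b (0.39). Against canagliflozin 7 of the 17 were higher in empagliflozin and 0 lower, with mcu, the mitochondrial calcium channel gene, and atp2b3a added. In mammals the pumps of atp2b2 and atp2b3 are known from neurons; 5 of 12 neuron markers rose as given above, and the part of neuronal RNA in these values was not tested.

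Of 31 tested sodium pump genes and cation-chloride regulators, 1 rose and 3 fell in empagliflozin against control, with a median of -0.05 log2. The neuronal pump subunit gene atp1a3a was at 90.4 ± 8.89 CPM in empagliflozin against 65.1 ± 6.01 CPM in control (log2 0.47, limma adjusted p = 0.0194). The pump subunit gene atp1a1a.4 was at 70.5 ± 1.73 CPM in empagliflozin against 97.1 ± 18.5 CPM in control (log2 -0.44, limma adjusted p = 0.0207). The subunit genes atp1b3a (-0.33, adjusted p = 0.0275) and atp1a1a.3 (-0.41, adjusted p = 0.0387) fell too. The atp1a1a genes are tandem copies that can share reads, so their single values are uncertain. Against canagliflozin 4 of the 31 were higher and 6 lower.

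Of 25 tested acid-base partners, 0 rose and 1 fell in empagliflozin against control, with a median of -0.11 log2. The one that fell was atp6v1ba, a subunit of the proton pump, at 158 ± 3.55 CPM in empagliflozin against 188 ± 12.7 CPM in control (log2 -0.25, limma adjusted p = 0.0225). Against canagliflozin 1 was higher, the carbonic anhydrase gene ca2 at 289 ± 24.4 CPM in empagliflozin and 219.0 ± 11.9 CPM in canagliflozin, and 4 proton pump subunit genes were lower.

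Of 26 tested genes on the list for zinc, iron, copper and manganese, 2 rose and 3 fell in empagliflozin against control, with a median of -0.10 log2. The metal-sensing transcription factor gene mtf1 rose to 5.04 ± 0.759 CPM in empagliflozin, against 3.53 ± 0.431 CPM in control (log2 0.41, limma adjusted p = 0.0364). The other that rose, mtf2 (0.28, adjusted p = 0.0348), encodes a Polycomb protein despite its name, so that of genes known for metal handling 1 rose. The transferrin gene tfa fell to 1037 ± 133 CPM in empagliflozin, against 1672 ± 251 CPM in control (log2 -0.69, limma adjusted p = 0.00556), and the copper chaperone gene atox1 fell by 0.52 log2 (adjusted p = 0.0142). The iron importer gene slc11a2 fell to 63.7 ± 1.95 CPM in empagliflozin, against 75.6 ± 6.26 CPM in control (log2 -0.24, limma adjusted p = 0.0344). Metallothionein, mt2, did not pass, at 54.9 ± 1.78 CPM in empagliflozin, 46.7 ± 8.94 CPM in canagliflozin and 59.4 ± 18.7 CPM in control.

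Markers of the yolk syncytial layer, which include tfa, summed to 19642 to 24144 CPM in empagliflozin, 21491 to 28010 CPM in canagliflozin and 21676 to 24309 CPM in control. Of 10 tested, 0 rose and 4 fell in empagliflozin against control, beside 6.87% higher and 6.41% lower of all tested genes. Of the list, 11 of 12 were in the table and 0 at zero. The part of that layer in the tfa value was not tested.

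Of 19 tested genes on the list for phosphate, sulfate and magnesium, 2 rose and 3 fell in empagliflozin against control, with a median of -0.17 log2. The magnesium transport and glycosylation gene magt1 fell by 0.46 log2 (33.1 ± 2.19 CPM in empagliflozin against 46.0 ± 4.80 CPM in control, limma adjusted p = 0.0148). The sulfotransferase gene sult2st1 fell by 0.50 log2 (19.4 ± 1.56 CPM in empagliflozin against 28.0 ± 4.91 CPM in control, limma adjusted p = 0.0200). Of the 2 that rose, papss1 makes activated sulfate (0.23, adjusted p = 0.0360), and pitx1 encodes a homeodomain transcription factor and no carrier or enzyme of these ions (0.46, adjusted p = 0.0293). The related papss2a fell by 0.41 log2. Against canagliflozin 1 gene of this list was higher and 5 were lower. In canagliflozin against control 0 genes of any of the 5 lists were called.

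**Figure D5:**
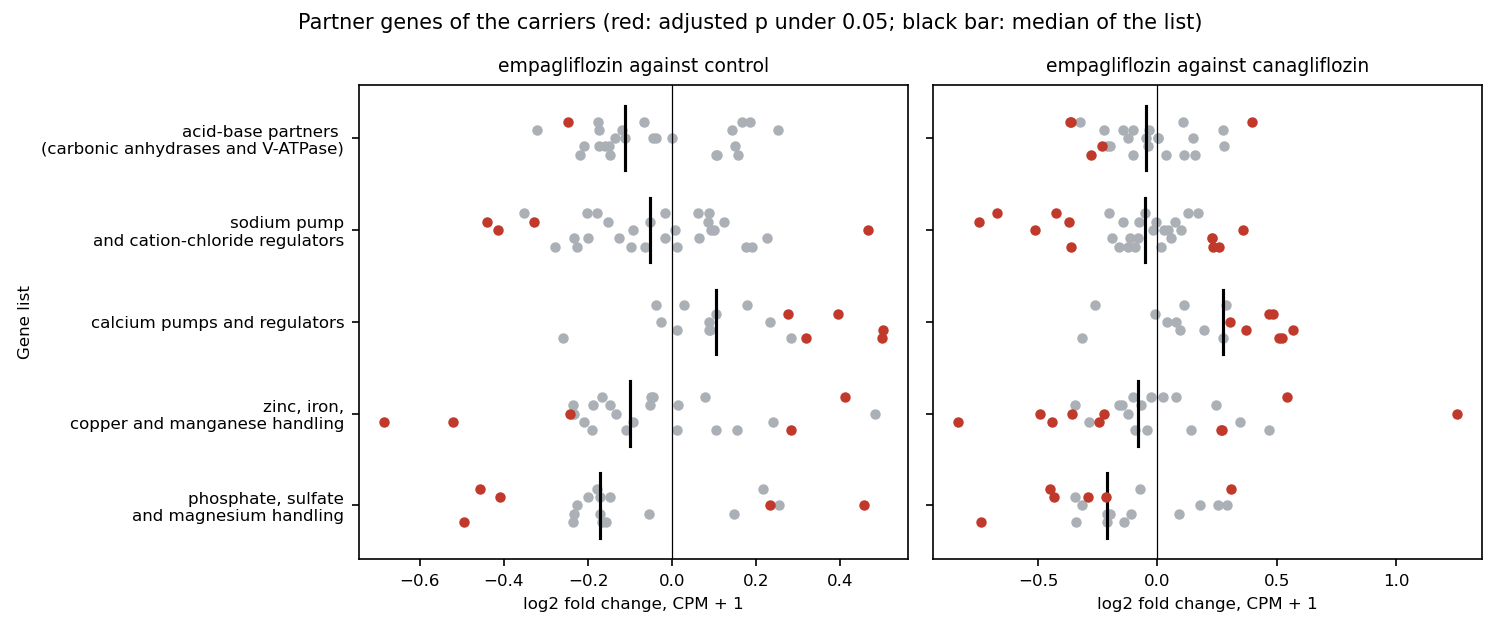
Log2 fold change on the CPM + 1 scale (horizontal axis) of each tested gene in 5 lists of genes chosen as partners of the carriers (rows), in empagliflozin against control and in empagliflozin against canagliflozin. Red points passed an adjusted p of 0.05 in limma and black bars are list medians: the calcium list has red points above 0 alone (5 and 7 genes), and the other lists have them mostly or partly below 0.

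The 12 carriers below the minimum had 2 to 240 reads each over all libraries and were not tested. Most of these reads came from slc8a2a, with 72 in empagliflozin, 84 in canagliflozin and 84 in control, and from slc12a8, slc12a10.3, slc24a2 and slc34a2aas. The last is named as the antisense gene of slc34a2a, and the labels do not state whether counting used strand. The anion exchanger genes slc26a4, slc26a3.2 and slc26a6l had 67, 49 and 32 reads in all, and slc8a4b had 77. The zinc importer gene slc39a4, which in mammals takes zinc up from the gut, had 18 reads in empagliflozin, 25 in canagliflozin and 9 in control. The phosphate carrier gene slc34a2a had 4 reads, all in canagliflozin, and slc26a3.1 had 2, both in empagliflozin. A count of 0 in a library allows up to 3 reads, or 0.109 to 0.186 CPM, so no statement on absence is made for these genes.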

How the data were processed

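The members, the partner lists and the marker lists were chosen with earlier results of these data known. RNA was measured in 12 pools of embryos by poly(A) RNA sequencing with a stranded kit and 50 bp pairs. FastQC, R 3.6.1 and the danRer10 build are named per the submitters' processing notes; the labels name no aligner or counter. The values of the deposited normalized table (a signal) are TMM-scaled CPM: multiplied by library size, 100% of its values were whole reads within 0.001. The authors' deposited comparison tables give a log2 fold change, a p-value and a false discovery rate per gene, by a test that the file names call ROTS, and served as a check only. Their filtered versions were not used.

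Genes with a mean of at least 1 CPM were tested with limma 3.58.1 in R 4.3.3 (lmFit, eBayes with trend) on log2(CPM + 1), with the 3 group means in a single fit. Tests were two-sided and adjusted by Benjamini-Hochberg over all 11964 genes, at 0.05. The fold scale understates changes of genes with few CPM. Other settings tried were a pseudocount of 0.1 or 5, a minimum of 5 CPM or none, median centring, quantile normalization, a block for the replicate number, fits on 2 groups alone, the recovered reads in edgeR 4.0.16 and in DESeq2 1.42.0, and libraries left out. The code of the fit was checked on simulated counts. These were drawn independently for each pool, so the check says nothing on pools that shift together, such as control 4 and canagliflozin 4. Named carriers were those called in any comparison, the 6 with the smallest p in each, and the leader in CPM of each family; partner genes were the 4 with the smallest p among those called against control in each list. Other carriers named, such as slc39a6 and slc12a10.2, were outside these rules and were described after their values were seen. Further partner and marker genes named were also chosen after their values were seen. The labels give no clutch, so p-values measure the spread between these pools. Floors cover counting error only, as PCR copies of a molecule were not told apart.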

Additional observations from a re-analysis of the deposited data

Results flagged for a closer look

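In each group of 4 pools, a carrier was singled out when its highest or lowest pool stood off from the nearest other pool by most of the group's range, by Dixon's ratio at the 95% level. The ratios were computed on log2(CPM + 1), and differ from ratios of the CPM values printed beside them. For all tested genes the ratio was not computed, and the groups share the same 12 pools. The count that follows is therefore not read as a trait of the carriers. Of 69 groups of the named carriers, 9 met the criterion, where chance gives about 5% of groups. For 4 of them the pool was canagliflozin 4: slc8a2b at 0.973 CPM against 2.40 to 2.48 CPM in the other pools (ratio 0.958), slc12a5b at 1.15 CPM against 2.83 to 3.13 CPM (ratio 0.883), slc12a2 at 53.9 CPM against 67.6 to 69.97 CPM (ratio 0.866) and slc30a7 at 73.6 CPM against 53.3 to 55.3 CPM (ratio 0.888). The red cell gene slc4a1a was low in control 4, at 204 CPM against 264 to 278 CPM in the other controls (ratio 0.836).

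The manganese exporter gene slc30a10 was low in canagliflozin 2, at 2.48 CPM against 2.98 to 3.06 CPM (ratio 0.870). Among empagliflozin pools, slc8a2b was low in pool 1, at 2.80 CPM against 3.67 to 3.81 CPM (ratio 0.877). The zinc importer gene slc39a9 was low in empagliflozin 3, at 23.0 CPM against 26.6 to 27.1 CPM (ratio 0.872), and slc30a7 was high in empagliflozin 4, at 63.6 CPM against 51.2 to 53.1 CPM (ratio 0.836).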

How the results depend on the processing

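Changes of pseudocount, minimum, scaling, tool or groups in the fit left 3 to 6 carriers called in empagliflozin against control, 8 to 11 in empagliflozin against canagliflozin and 0 in canagliflozin against control. The share of all tested genes called ran from 7.82% to 19% and from 20.4% to 29.4% in the empagliflozin comparisons against control and against canagliflozin under the same settings. In canagliflozin against control that share was 0.201% with DESeq2 and 0% with the other settings. Without control 4 and canagliflozin 4 together the counts were 15 in empagliflozin against control and 18 in empagliflozin against canagliflozin. Leaving out 1 library gave 1 to 10 carriers in empagliflozin against control, 5 to 15 in empagliflozin against canagliflozin, and 0 to 0 in canagliflozin against control. The count in empagliflozin against control was 10 without control 4, 7 without canagliflozin 4, 2 without empagliflozin 1, empagliflozin 3 or control 1, and 1 without empagliflozin 2, control 2 or control 3. That in empagliflozin against canagliflozin was 15 without canagliflozin 4, 5 without empagliflozin 3 and 6 without canagliflozin 3. The share of all tested genes called moved too. In empagliflozin against control it was 25.4% without control 4, 22.6% without canagliflozin 4, 4.14% to 6.13% in the fits with 2 carriers and 2.24% to 3.8% in those with 1. In empagliflozin against canagliflozin it was 35.4% without canagliflozin 4, 18.1% without empagliflozin 3 and 18.4% without canagliflozin 3. In canagliflozin against control it was 0.0585% without control 3 and 0% without any other single library. Signs were followed for the 10 called carriers and for the 6 with the smallest p in each comparison, and turned for 3 of them, in canagliflozin against control, where none was called: slc8a2b ran from -0.35 to 0.0092 log2 with 1 library left out, slc39a10 from -0.047 to 0.054 (0.057 without control 4 and canagliflozin 4 together), and slc39a9 from -0.069 to 0.047. In the labels, same-numbered pools share only a number. The correlations of their deviations from the group means ran from -0.10 to 0.26, -0.12 to 0.59 and -0.09 to 0.07. The order is empagliflozin against control, canagliflozin against control, then the 2 compounds against each other. The 0.59 is that of canagliflozin 4 and control 4, which also stand apart from their groups on the principal axis. In the same order, 2, 2 and 1 of 8 pools correlated best with their own number. With the replicate block, 6, 0 and 11 carriers were called in that order, against 19%, 0% and 28.9% of all tested genes. The cause of these shifts was not tested. Low levels limit slc4a3 and slc8a2b, which gave no value at a minimum of 5 CPM; for slc4a3 in either compound against control, DESeq2 gave no adjusted p.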

Other observations

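Markers of 3 further cell types that hold carriers were read in the same fits. Of all tested genes 6.87% were higher and 6.41% lower in empagliflozin against control. Muscle markers, 12 of 14 in the table, summed to 21137 to 29166 CPM in empagliflozin, 23835 to 25621 CPM in canagliflozin and 23155 to 28560 CPM in control, and 1 of 12 tested rose in empagliflozin against control, the fast muscle troponin gene tnnt3b (log2 0.49, limma adjusted p = 0.0494). Heart markers, 10 of 11 in the table, summed to 250.2 to 292 CPM in empagliflozin, 264 to 294 CPM in canagliflozin and 254 to 295 CPM in control. Of 10 tested, 1 rose, the transcription factor gene gata4 (log2 0.41, limma adjusted p = 0.0377), and 1 fell, the myosin light chain gene myl7 (log2 -0.33, limma adjusted p = 0.0143). Notochord markers, 8 of 10 in the table, summed to 1859 to 2297 CPM in empagliflozin, 1624 to 1889 CPM in canagliflozin and 1755 to 2212 CPM in control, and 1 of 7 tested fell, col8a1a (log2 -0.33, limma adjusted p = 0.0451).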
